A study of Mus musculus with 4 samples.

Results

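H3K9me3 peaks that lay on H3K4me3 peaks at the ends of protein-coding genes were examined in mouse peritoneal macrophages. H3K9me3 is trimethylated lysine 9 and H3K4me3 trimethylated lysine 4 of histone H3, and both were mapped by chromatin immunoprecipitation and sequencing. A member is an H3K9me3 peak on chromosomes 1 to 19 or X that meets both parts of the rule. It lies within 1 kb of a RefSeq gene end, and it shares 1 bp or more with an H3K4me3 peak of the same treatment. The deposited lists held 2864 members among 17288 H3K9me3 peaks in LPS (16.6%, interval 16.0 to 17.1%) and 2163 among 19162 in PBS (11.3%, 10.8 to 11.7%). That makes 5027 members of 36450 H3K9me3 peaks in all. Peaks of the LPS and PBS lists that overlapped or touched were merged, which left 3774 sites with a member. Members were chosen by the measured peaks of both marks, so these counts describe the choice and are not a result.

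The macrophages came from C57BL/6 mice aged 8 weeks, had been elicited with thioglycollate broth, and were adherent when treated. They received lipopolysaccharide (LPS), a bacterial cell wall component that activates macrophages, or phosphate-buffered saline (PBS) for 24 h. Each of the 4 groups (H3K4me3 with LPS, H3K9me3 with LPS, H3K4me3 with PBS, H3K9me3 with PBS) was 1 library, so no difference between treatments could be tested. The labels give neither the number nor the sex of the mice behind a library. The H3K9me3 libraries held 28586946 tags (LPS) and 27727997 tags (PBS) after the caller's filter, and the H3K4me3 libraries 26748289 (LPS) and 29681491 (PBS). Only 1.61% (LPS) and 1.67% (PBS) of the H3K9me3 tags lay in listed peaks, against 14.03% and 17.8% of the H3K4me3 tags. No control library was used in calling, per the file headers. All 11 macrophage markers, among them Adgre1, Csf1r and Spi1, had an H3K4me3 peak at a gene end in LPS and in PBS. Of the 7 mesothelial and fibroblast markers 2 had one in LPS and 5 in PBS, of 7 T cell markers 2 in each, of 6 B cell markers 3 in each, of 6 eosinophil and mast cell markers 1 in each, and of 5 neutrophil markers 1 in LPS and 0 in PBS. Among all these markers only Wt1, a mesothelial transcription factor gene, carried a member. The part of other cell types in the member sites was not tested.

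H3K4me3 is written by the SET1 and MLL enzymes and marks the starts of active and poised genes, above all those in CpG islands. H3K9me3 is written by SUV39H1, SUV39H2 and SETDB1 and bound by HP1 proteins, and it is best known from silent heterochromatin, repeats and zinc finger gene clusters. Both marks are known to meet at imprinted control regions, where 1 parental allele is silenced, and H3K9 methylation also silences germline genes in somatic cells. These libraries were made from bulk chromatin. Both marks on 1 allele, on separate alleles and in separate cells therefore cannot be told apart.

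Promoter sequences of 6 genes are given first, because promoter windows that a member overlapped differed from other H3K4me3 promoters in base composition. Duxf3, a double homeobox gene in a tandem array, held the member site with the most tags. Dazl and Ddx4 encode germ cell RNA-binding proteins. Peg3 is an imprinted zinc finger gene, Hoxd13 a homeobox gene of limb patterning, and Cxcl1 a neutrophil-attracting chemokine that LPS induces. Duxf3 follows from the naming rule and the other 5 were chosen after their values were seen. Each is 300 bases from RefSeq (GRCm38.p6), from 250 before to 50 after the gene start, written 5′ to 3′ on the gene's strand with each CpG in capitals.
Duxf3 (chr10:58233040-58233339, minus strand): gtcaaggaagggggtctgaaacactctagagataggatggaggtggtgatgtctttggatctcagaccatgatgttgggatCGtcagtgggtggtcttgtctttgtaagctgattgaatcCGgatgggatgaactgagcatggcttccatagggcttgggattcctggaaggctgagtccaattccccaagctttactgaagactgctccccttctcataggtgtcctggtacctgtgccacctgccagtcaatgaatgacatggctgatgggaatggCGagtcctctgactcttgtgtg
Dazl (chr17:50293571-50293870, minus strand): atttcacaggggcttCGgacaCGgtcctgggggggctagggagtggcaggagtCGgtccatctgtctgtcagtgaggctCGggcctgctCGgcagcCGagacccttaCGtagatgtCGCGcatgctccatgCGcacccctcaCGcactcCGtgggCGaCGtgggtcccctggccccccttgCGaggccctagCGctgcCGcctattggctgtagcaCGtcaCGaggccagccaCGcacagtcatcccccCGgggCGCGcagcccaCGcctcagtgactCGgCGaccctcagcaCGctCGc
Ddx4 (chr13:112652261-112652560, minus strand): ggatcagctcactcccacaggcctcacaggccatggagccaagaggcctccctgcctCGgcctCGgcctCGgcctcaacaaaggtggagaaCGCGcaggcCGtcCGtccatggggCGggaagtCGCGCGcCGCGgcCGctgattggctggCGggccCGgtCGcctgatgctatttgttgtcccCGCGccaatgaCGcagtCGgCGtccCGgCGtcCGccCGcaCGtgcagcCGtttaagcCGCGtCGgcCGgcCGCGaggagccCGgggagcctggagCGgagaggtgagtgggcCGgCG
Peg3 (chr7:6730370-6730669, minus strand): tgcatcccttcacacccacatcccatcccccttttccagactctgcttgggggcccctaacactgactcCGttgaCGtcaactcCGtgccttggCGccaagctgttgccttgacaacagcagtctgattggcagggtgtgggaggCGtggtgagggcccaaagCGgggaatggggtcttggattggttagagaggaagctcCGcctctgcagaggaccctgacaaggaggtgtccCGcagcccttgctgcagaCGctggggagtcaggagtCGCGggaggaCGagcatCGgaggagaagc
Hoxd13 (chr2:74667975-74668274, plus strand): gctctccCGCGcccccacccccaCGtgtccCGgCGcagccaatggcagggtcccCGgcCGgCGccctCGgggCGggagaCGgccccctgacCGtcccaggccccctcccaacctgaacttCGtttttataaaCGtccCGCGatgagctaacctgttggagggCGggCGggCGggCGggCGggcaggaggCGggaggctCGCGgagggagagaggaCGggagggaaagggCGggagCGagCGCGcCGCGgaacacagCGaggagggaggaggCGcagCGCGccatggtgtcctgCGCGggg
Cxcl1 (chr5:90890995-90891294, plus strand): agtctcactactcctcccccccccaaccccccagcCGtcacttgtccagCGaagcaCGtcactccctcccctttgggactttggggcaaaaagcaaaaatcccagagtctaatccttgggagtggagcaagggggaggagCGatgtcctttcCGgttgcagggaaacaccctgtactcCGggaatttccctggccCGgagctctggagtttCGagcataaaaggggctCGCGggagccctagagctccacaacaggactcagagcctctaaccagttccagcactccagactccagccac
The site covered all 300 bases at Duxf3, Dazl, Ddx4, Hoxd13 and Cxcl1 and 233 of them at Peg3. The Duxf3 window held 3 CpGs, and the ratio of observed to expected CpG was 0.16. The Cxcl1 and Peg3 windows held 10 and 13 CpGs (ratios 0.40 and 0.46). Dazl had 28 CpGs (0.80), Hoxd13 37 (0.90) and Ddx4 38 (0.98). H3K9me3 tags at these sites were 923 in LPS and 926 in PBS for Duxf3, 121 and 127 for Dazl, and 86 and 40 for Ddx4. They were 18 in LPS and 25 in PBS for Peg3, 61 and 21 for Hoxd13, and 33 and 18 for Cxcl1.

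Most members were short and weak peaks. The median member was 314.5 bp long with 22 tags in LPS and 280 bp with 19 tags in PBS. The other H3K9me3 peaks had a median length of 251.5 bp and 17 tags in LPS, and 242 bp and 16 tags in PBS. Under 30 tags were held by 69.2% of the members in LPS and 78.5% in PBS, and the fewest tags in a member were 12 (LPS) and 11 (PBS). The caller's fragment length was 71 bp (LPS) and 66 bp (PBS) for H3K9me3, against 149 and 142 bp for H3K4me3. Whether the weak peaks on H3K4me3 promoters mark H3K9me3 was not tested, so each count of members is a count of called peaks. At the other extreme, 43 members in LPS and 29 in PBS held 100 tags or more, up to 923 and 926. The authors' score, minus 10 times the base 10 logarithm of the p-value, had a median of 73.4 over the LPS members and 71.0 over the PBS members. The authors' fold enrichment over background had medians of 7.52 and 8.17. At the edge of the rule, the LPS members farthest from a gene end lay 999 bp from Cradd (14 tags) and Rrbp1 (16), and the PBS members 999 bp from En1 (26) and Lgalsl (16). Just outside, LPS peaks lay 1003 bp from Pde5a (19 tags) and 1009 bp from Rnf169 (46). In PBS they lay 1003 bp from Prdm9 (75) and 1006 bp from Clock (49). A gene end fell inside the peak itself for 433 members in LPS (15.1%) and 288 in PBS (13.3%).

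The other treatment's H3K9me3 list did not choose a member, so it shows how often a member was called again. Of the LPS members, 1258 met a PBS H3K9me3 peak (43.9%, 42.1 to 45.8%), against 34.04% of the other LPS peaks. Of the PBS members, 1227 met an LPS peak (56.7%, 54.6 to 58.8%), against 29.3% of the other PBS peaks. In LPS this order depended on peak strength. Among peaks of under 15 tags, 26.8% of LPS members and 16.9% of other LPS peaks were met, while from 20 to 29 tags the shares were 42.1% and 44.1%. With scores of 100 or more in both lists, 36.2% of LPS members and 49.6% of other LPS peaks were met, so the order turned round, and in PBS the shares were 51.2% and 47.5%. Among the strongest peaks, of 100 tags or more, 95.3% of LPS members and 93.1% of PBS members were found in the other list, close to the 96.0% and 88.7% of other peaks. Nearly all members, 97.3% in LPS and 98.7% in PBS, also lay on an H3K4me3 peak of the other treatment. By site, 1235 were listed for H3K9me3 in both treatments (32.7%), 1605 in LPS only (42.5%) and 934 in PBS only (24.7%). Over all H3K9me3 regions the shares listed in LPS only and in PBS only were 37% and 43.1%.

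Per peak, members lay more often on tall and wide H3K4me3 peaks, while the density per kb is limited by how it was counted. In LPS, 2656 of 13443 gene-end H3K4me3 peaks carried one (19.8%, 19.09 to 20.4%), and in PBS 2025 of 13950 (14.5%, 13.9 to 15.1%). H3K4me3 peaks with a member had a median of 273 tags over 1751.5 bp in LPS, against 141 tags over 1285 bp for those without. In PBS the medians were 401 tags over 1986 bp with a member and 205 tags over 1449 bp without. The share with a member was 6.59% under 50 H3K4me3 tags and 43.6% from 400 to below 800 tags in LPS, and 4.36% and 34.1% in PBS. The LPS share exceeded the PBS share in each class below 800 tags, and most from 200 to below 400 tags, with 33.2% in LPS and 14.7% in PBS. Gene-end H3K4me3 peaks had fewer tags in LPS (median 163) than in PBS (228), so a class does not hold the same peaks in both. A wide peak is met more often by any interval. Peaks with a member numbered 0.125 per kb of gene-end H3K4me3 peak in LPS and 0.0834 in PBS. By width this density was 0.101 below 1 kb, 0.146 from 1 to below 2 kb and 0.0574 from 4 kb in LPS, and 0.0518, 0.0919 and 0.0497 in PBS. By tags it was 0.104 below 50 tags, 0.0651 from 50 to below 100, 0.166 from 200 to below 400, 0.133 from 400 to below 800 and 0.0660 from 800 in LPS. In PBS it was 0.0720, 0.0425, 0.0810, 0.121 and 0.0771. This density was highest from 1 to below 2 kb in both treatments, at 200 to below 400 tags in LPS and at 400 to below 800 tags in PBS. Each H3K4me3 peak counts once in it, although 201 (LPS) and 134 (PBS) carried 2 members or more. A member must also lie within 1 kb of a gene end. The ceiling of the density therefore falls with width, and the values do not show how densely members lie in wide peaks.

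**Figure D1:**
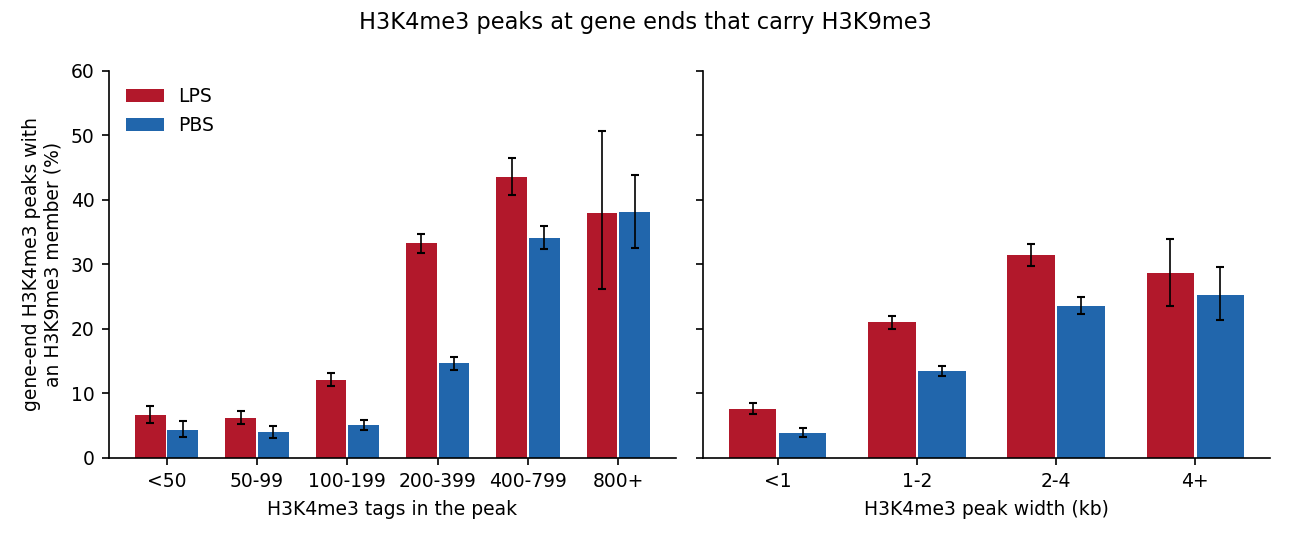
Share of gene-end H3K4me3 peaks that carried an H3K9me3 member (%), by the number of H3K4me3 tags in the peak on the left and by peak width in kb on the right, LPS in red and PBS in blue, with exact 95% intervals as bars. The share in LPS stood at 6.59% below 50 tags and at 43.6% from 400 to below 800 tags.

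The members sat inside the H3K4me3 peaks, and like the H3K4me3 summits most lay downstream of gene starts. Members were chosen for overlapping an H3K4me3 peak near a gene end, so these positions partly follow from the rule. Of the LPS members 98.0% lay wholly inside the H3K4me3 peak and of the PBS members 98.4%. The H3K9me3 summit fell in the middle 50% of the H3K4me3 peak for 78.0% of LPS members and 78.9% of PBS members. The median distance between the summits of the marks was 94.5 bp in LPS (quartiles 37 and 241) and 96 bp in PBS (41 and 228). The rule admits either end of a gene, and the promoter table gives the starts. Within 1 kb of an annotated start lay 73.9% of the member summits in LPS and 75.04% in PBS. The comparison leaves out chromosome 18, whose starts were not used here. Starts matched 17274 of the 21631 genes, so a summit at an unmatched start can count as away from a start. The remaining summits therefore need not lie at the other end of a gene. Gene-end H3K4me3 summits gave 74.4% with a member and 74.1% without in LPS, and 75.1% and 74.0% in PBS. Of the member summits within 1 kb, those in LPS lay at a median of 251.5 bp downstream of the start (quartiles 106 and 412.75). Those in PBS lay at 259 bp (107 and 403). Upstream of the start lay 15.4% (LPS) and 14.8% (PBS). H3K4me3 summits of the peaks with a member had medians of 251 bp (LPS) and 237 bp (PBS), and those without a member 188 bp and 173 bp. The few other H3K9me3 summits within 1 kb of a start, 516 in LPS and 437 in PBS, had medians of 228.5 bp and 270 bp downstream.

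**Figure D2:**
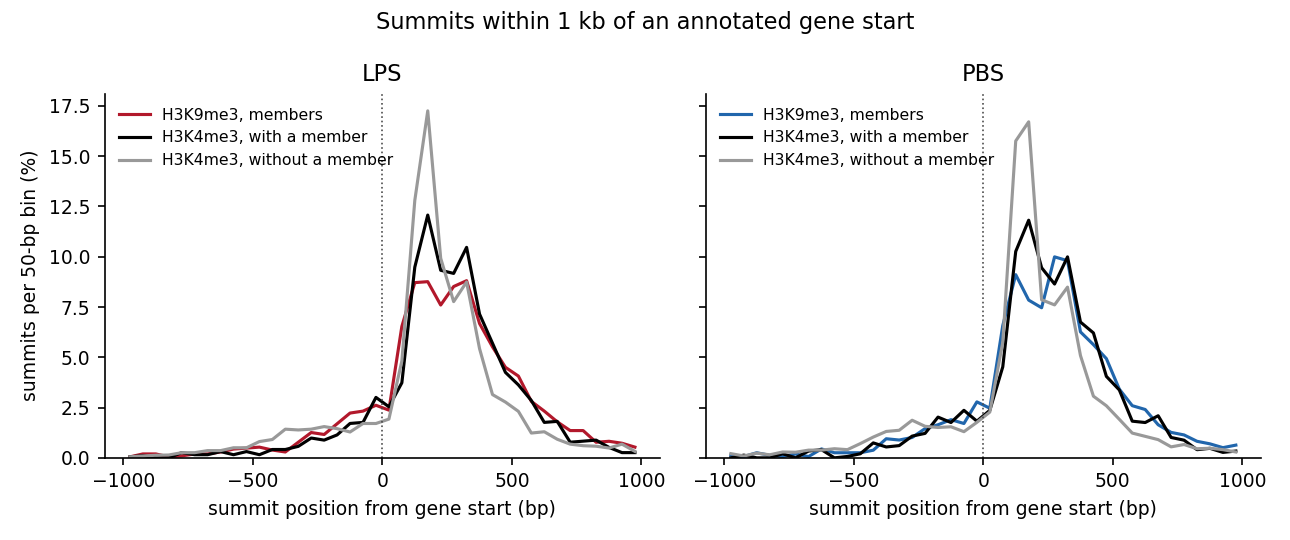
Positions of peak summits relative to the annotated gene start (bp), in 50-bp bins as a percentage of all summits within 1 kb, for LPS on the left and PBS on the right. Coloured lines are H3K9me3 members, black lines H3K4me3 peaks with a member and grey lines H3K4me3 peaks without one. The member summits lie mostly downstream of the start, with medians of 251.5 bp in LPS and 259 bp in PBS.

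The promoter windows that a member overlapped were CpG-rich. They describe a minority of the members, since 29.4% of members in LPS, 28.02% in PBS and 1166 of the 3774 sites (30.9%) overlapped a window. A member overlapped 1277 windows, which had a median GC content of 70.3% (quartiles 64.3 and 75.7%) and an observed to expected CpG ratio of 0.86 (0.73 and 0.98). The 11689 windows with an H3K4me3 peak and no H3K9me3 peak had medians of 61.0% and 0.75, and the 7816 windows with no H3K4me3 peak 47.3% and 0.19. At 3089 windows a member lay within 1 kb of the start, a looser choice made after seeing the data, and the medians there were 67% and 0.85. Windows with a member in both treatments had a GC median of 73.0%, those in LPS only 69.5% and those in PBS only 69.8%. Among windows on H3K4me3, the share with a member was 1.94% at CpG ratios under 0.3, 8.48% from 0.6 to 0.8 and 16.7% at 1 or more. At CpG ratios under 0.6 the intervals of the share overlapped at every H3K4me3 strength, with 4.05% under 200 tags, 4.67% from 200 to below 400 and 4.55% from 400. At ratios from 0.8 the shares were 6.45%, 11.05% and 21.4%. The part of base composition in the peak calls was not tested.

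Short motifs were counted on both strands of the same windows. GGGCGG, the core of Sp1 sites, was in 82.7% of the windows with a member, 65.1% of those with H3K4me3 alone and 46.7% of all windows. CCAAT, read by NF-Y, was in 28.1%, 38.2% and 38.5%. CCGGAAG, an ETS factor motif, was in 13.9%, 17.8% and 11.7%, and TATAAA in 4.07%, 6.41% and 12.7%. TGANTCA, the AP-1 motif, was in 2.66%, 4.83% and 7.04%. TGACGTCA, the CREB motif, was in 2.98%, 3.23% and 2.26%, and GCATGCGC, an NRF1 motif, in 4.07%, 5.30% and 3.55%. CTCGCGAGA was in 1.64%, 1.43% and 0.976%, and GGAATTTCC, an NF-kB motif, in 0.470%, 0.325% and 0.362%. Of the printed promoters, Cxcl1 holds GGAATTTCC, Peg3 TGACGTCA, Dazl GCATGCGC and Hoxd13 TATAAA. A match describes the letters and does not show binding. The windows with a member also had a higher GC content, and motif shares at matched GC content were not taken.

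The X chromosome carried almost no members. In LPS, 2 of 382 gene-end H3K4me3 peaks on X carried one (0.524%, 0.0635 to 1.88%), against 2654 of 13061 on the autosomes (20.3%). In PBS the counts were 3 of 430 on X (0.698%, 0.144 to 2.03%) and 2022 of 13520 on the autosomes (14.96%). Autosomes ranged from 15.5% (chromosome 7) to 24.0% (chromosome 4) in LPS and from 10.8% (7) to 17.7% (5) in PBS. H3K4me3 peaks on X also had fewer tags, with medians of 74 on X and 166 on autosomes in LPS and of 116.5 and 233 in PBS. From 200 to below 400 H3K4me3 tags, 1 of 36 peaks on X carried a member in LPS and 33.5% of the autosomal ones, and in PBS 1 of 87 and 14.9%. Peaks on the Y chromosome were listed in all 4 libraries. The part of X copy number in this pattern was not tested. Of the 4 X sites, 1 was strong. It lay at Asmt, which encodes the last enzyme of melatonin synthesis and is known to lie in the pseudoautosomal region of the mouse, and held 262 tags in LPS and 259 in PBS. Map3k15, a kinase gene, held 13 tags in LPS only. In PBS only, Spin2d held 14 tags and the site of Dnaaf6b and Nup62cl held 36.

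**Figure D3:**
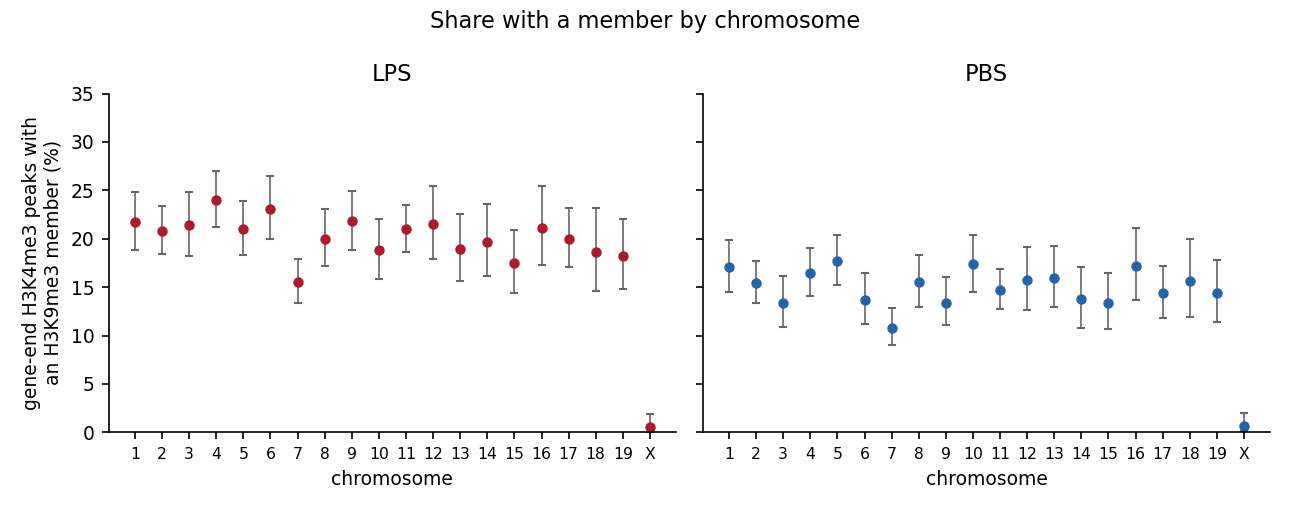
Share of gene-end H3K4me3 peaks that carried an H3K9me3 member (%) on each chromosome, LPS on the left and PBS on the right, with exact 95% intervals. All 19 autosomes lie between 10.8% and 24.0%, and X lies at 0.524% in LPS and 0.698% in PBS.

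The strongest sites were found in both treatments. Of 49 sites with 100 tags or more in a list, 45 were listed in LPS and PBS, 2 in LPS only and 2 in PBS only. Their H3K4me3 regions were weaker than those of the remaining sites, at a median of 188 tags (LPS) and 221 tags (PBS), against 280 and 381. The site at Duxf3 and Gm4981 (chromosome 10, 58230061 to 58234251) held 923 H3K9me3 tags in LPS and 926 in PBS, over 641 and 753 H3K4me3 tags. Nearby LOC100504180 held 785 and 916. Copies of this tandem array are near identical, so the way reads were placed among them limits these values. Fcgr3, a low-affinity receptor for IgG on macrophages, held 703 tags in LPS and 531 in PBS (chromosome 1, 171063608 to 171067021). That region also covers 5 tRNA genes and the microRNA gene Mir6546. On the log2 scale, the LPS over PBS ratio of its scaled tags was 0.36 (0.20 to 0.53), or 0.33 per covered kb. Its H3K4me3 tags numbered 1253 in LPS and 937 in PBS. They covered 6.16 kb (LPS) and 3.65 kb (PBS), and their log2 ratio of 0.57 turned to -0.19 per covered kb. It was the only member over a tRNA gene in either list.

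Further strong sites held zinc finger, interferon-linked and unnamed genes. Zfp865 on chromosome 7 held 353 tags in LPS and 338 in PBS, and the PBS peak missed the rule because it lay 1011 bp from the gene end. Nmi, which encodes an interferon-induced partner of STAT and MYC proteins, held 340 and 250 tags (log2 ratio 0.40, 0.16 to 0.64). The Nmi site lay outside the gene, with no annotated gene under it. Gm21119 held 328 and 209 (0.61, 0.35 to 0.86; 0.17 per covered kb). On chromosome 8, Gm51573 held 304 and 334. The neighbouring genes Gm51571 and Gm51572 had 3 sites between 55115809 and 55123710, with 252 and 344, 273 and 307, and 183 and 185 tags in LPS and PBS. Dact3, a Wnt pathway antagonist, held 197 and 152.

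**Figure D4:**
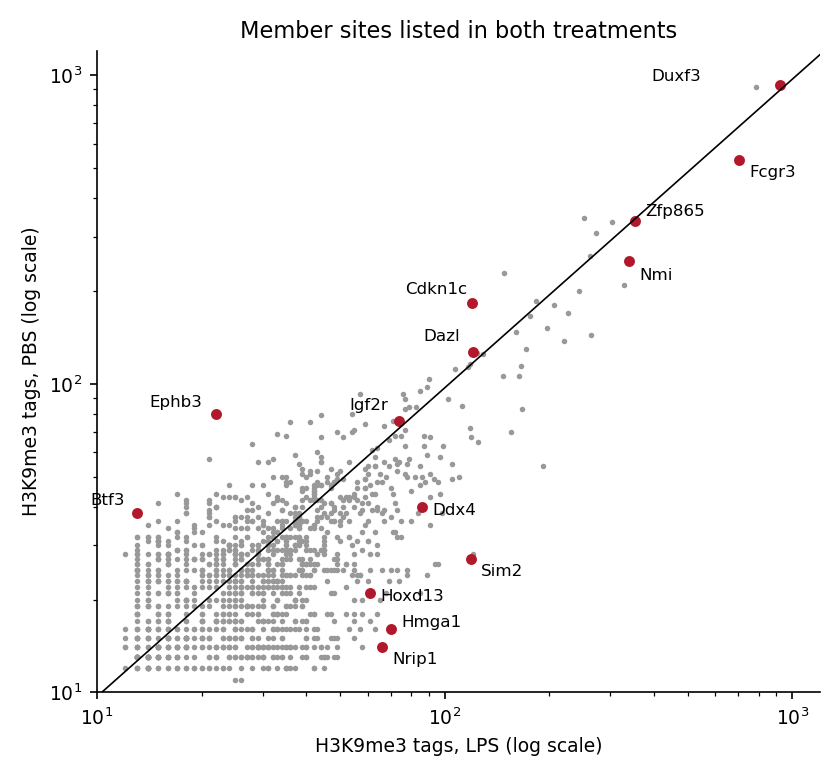
H3K9me3 tags in LPS (horizontal) and PBS (vertical), both on log scales, at the 1235 member sites listed in both treatments. The line marks equal tags per filtered tag and red points are named genes. The sites with most tags lie near the line, whereas Sim2 (119 tags in LPS, 27 in PBS) and Ephb3 (22 in LPS, 80 in PBS) lie off it.

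Some sites were listed in 1 treatment only, and there the other library gives no tag count because its peak fell under the caller's threshold. In LPS only, the most tags were at Grn and Fam171a2 (125), Insm1 (109), Hunk (94), Igf2bp2 (93) and Dmrt3 (89). The site at Grn and Fam171a2 lay inside Fam171a2 and outside Grn. Grn encodes progranulin, a lysosomal and secreted macrophage protein. Insm1 and Dmrt3 encode transcription factors of neuroendocrine and neural cells, Hunk a kinase and Igf2bp2 an RNA-binding protein. In PBS only, they were at Gm7592 (189), Gm40363 (153), Plxna1 with Gm40415 (64), Sall3 (51) and Kcnh2 (51). The order by the authors' score differed, with 53.0 at Gm7592, 82.9 at Gm40363, 163.4 at Plxna1, 127.1 at Sall3 and 141.2 at Kcnh2. The lowest score in that list was 50, so the Gm7592 peak lay close to the caller's threshold. Plxna1 encodes a semaphorin receptor, Sall3 a zinc finger factor and Kcnh2 a potassium channel. H3K4me3 was listed at all of these genes in both treatments except at Gm7592 and Gm40363, where it was listed in PBS only (210 and 873 tags).

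Where both treatments listed a site, H3K9me3 tags were somewhat more numerous in LPS per site but not per covered kb. Over 1235 member sites the LPS over PBS ratio of scaled tags had a log2 median of 0.18 (0.13 to 0.22; quartiles -0.24 and 0.63). Per covered kb it was 0.00. Over the 4757 other regions in both lists it was -0.01, and -0.04 per covered kb. At least 2-fold more tags in LPS were found at 159 of the 945 member sites with 40 tags or more in both libraries together (16.8%), against 8.85% of all such H3K9me3 regions and 6.34% of those without a member. At least 2-fold fewer were found at 43 sites (4.55%), against 5.22% and 5.44%. The tags are summed over peaks called separately in each treatment, and the part of called length in these counts was not tested. Per covered kb, 0 of the 945 sites were 2-fold higher and 0 were 2-fold lower in LPS, against 0.0507% and 0.152% of all such regions and 0.0667% and 0.2% of those without a member. The highest ratios were at Nrip1, a nuclear receptor corepressor gene (66 tags in LPS, 14 in PBS, log2 ratio 2.19, 1.35 to 3.14), Sim2, a bHLH-PAS factor gene (119 and 27, 2.10, 1.48 to 2.76), and Hmga1, an architectural chromatin protein gene (70 and 16, 2.09, 1.29 to 2.97). The lowest were at Ephb3, an ephrin receptor gene (22 in LPS, 80 in PBS, -1.91), Btf3, a nascent polypeptide factor gene (13 and 38, -1.59), and Cdc42bpa, a kinase gene (15 and 41, -1.49). Per covered kb these 6 ratios shrank to between -0.50 at Btf3 and 0.45 at Hmga1. At Sim2, for instance, 1.37 kb was called in LPS and 0.363 kb in PBS. The PBS peak at Nrip1 lay 1236 bp from the gene end and missed the rule. That site is therefore a member through its LPS peak only, the treatment in which its tags were higher.

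H3K4me3 at the same places was slightly lower in LPS, as it was at gene ends without a member. At gene-end H3K4me3 regions listed in both treatments, the median log2 ratio was -0.27 over 1231 regions with a member in both treatments, -0.29 over 1358 with one in LPS only and -0.31 over 774 with one in PBS only. It was -0.39 over 9336 regions without a member and -0.35 over all 12699, so that all regions with a member together came to 0.068 relative to that median. With 100 tags or more, H3K4me3 was at least 2-fold higher in LPS at 5 of 3298 regions with a member (0.152%, against 0.559% of all H3K4me3 regions) and at least 2-fold lower at 14 (0.424%, against 3.19%). Among gene-end regions without a member the shares were 0.329% and 3.46%. Those regions held fewer H3K4me3 tags, with medians of 146 (LPS) and 214 (PBS), against 320 and 428 with a member in both treatments. The shares were not compared at matched tags. Per covered kb, 0 of the 3298 regions were at least 2-fold higher (0.00559% of all) and 3 were at least 2-fold lower (0.091%, against 0.0671%). Nfkbia, which encodes the NF-kB inhibitor IkB-alpha, was a member site with lower H3K4me3 in LPS. It held 300 H3K4me3 tags in LPS and 700 in PBS, in peaks of 2.49 kb (LPS) and 3.51 kb (PBS). The log2 ratio was -1.07, or -0.57 per covered kb. H3K9me3 tags there were 33 in LPS and 18 in PBS (0.83, -0.04 to 1.75; 0.32 per covered kb).

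By gene, members lay at an end of 2900 genes in LPS (13.4% of 21631 protein-coding genes) and of 2220 in PBS (10.3%). Both treatments shared 1335 genes (6.17%), 1565 had one in LPS only and 885 in PBS only. In either treatment it was 3785 genes, 17.5% of all and 26.8% of the 14110 with an H3K4me3 peak at an end, of which 9.46% had one in both treatments. That 26.8% stands beside the shares of gene lists that follow, and no list was tested. At 380 sites the member lay at ends of 2 genes and at 6 sites of 3 or more, and is counted for each.

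Imprinted genes were members in 12 of the 24 with H3K4me3 (50%), 12 in LPS, 10 in PBS and 10 in both. Their H3K4me3 was weaker than that of all genes, at a median of 127.5 tags (LPS) and 146.5 tags (PBS), against 187 and 265. Cdkn1c, a cyclin-dependent kinase inhibitor gene, held 120 H3K9me3 tags in LPS and 183 in PBS on chromosome 7 (143458988 to 143461057; log2 ratio -0.65, -0.997 to -0.31; 0.08 per covered kb). Igf2r, the receptor that clears IGF2, held 74 and 76 on chromosome 17. Kcnq1, the host gene of the imprinted antisense transcript Kcnq1ot1, held 36 and 22. That site began at 143106983 on chromosome 7, beside 1 end of Kcnq1, which runs from 143106877 to 143427050. Nap1l5 held 26 and 28, Inpp5f 28 and 24, and Grb10, an insulin receptor adaptor gene, 16 and 28. Peg3 and Usp29 share a site of 18 tags in LPS and 25 in PBS. Peg10 and Sgce share 2 sites, 1 in LPS only (21 tags) and 1 in PBS only (20). Plagl1 (31 tags) and Ube3a (14) were listed in LPS only.

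Germline genes were members in 4 of 8 with H3K4me3, of 24 in the list. Dazl held 121 tags in LPS and 127 in PBS (ratio -0.11 on the log2 scale, -0.49 to 0.26) over 144 and 155 H3K4me3 tags. Ddx4, a germ cell helicase gene, held 86 and 40 (1.06, 0.50 to 1.64; 0.50 per covered kb). Tex19.1 held 34 and 32 H3K9me3 tags, with an H3K4me3 peak in LPS only (42 tags). Smc1b, a meiotic cohesin gene, held 16 tags in PBS only.

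**Figure D5:**
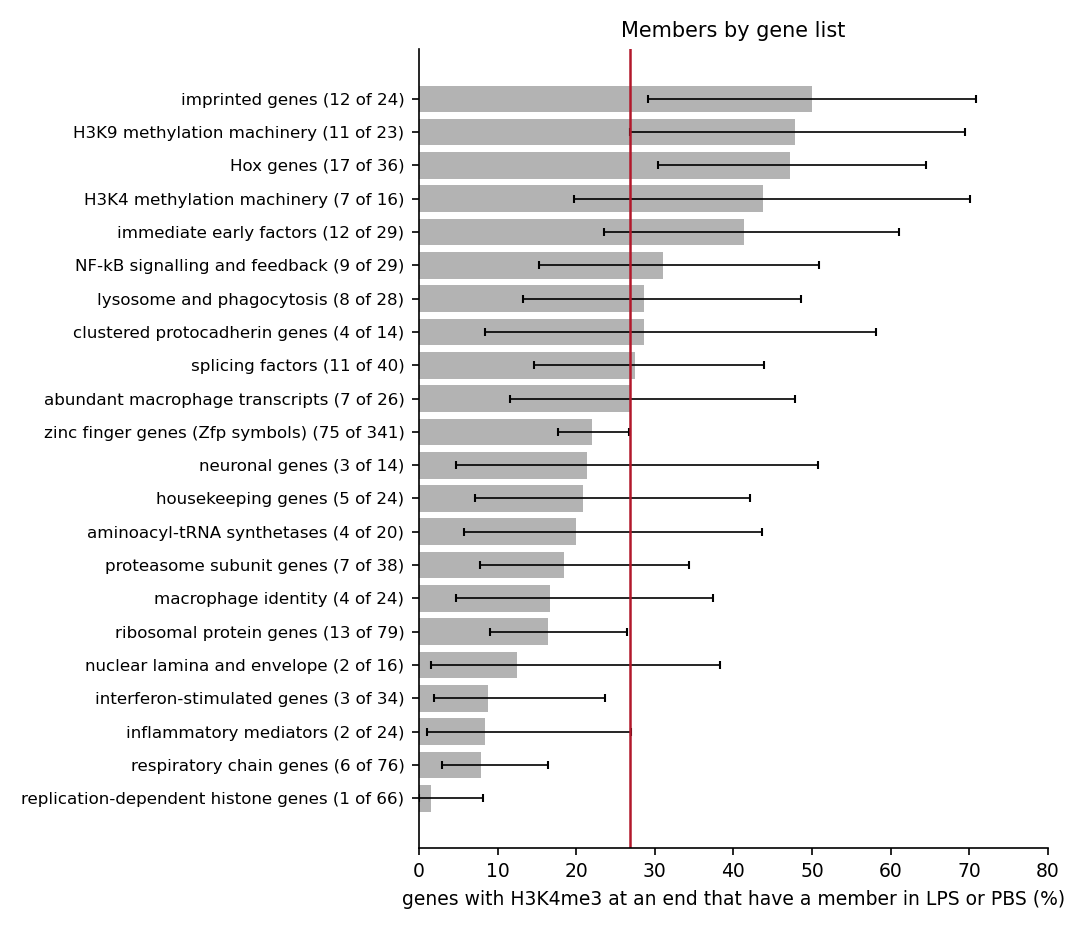
Genes of each list with an H3K4me3 peak at an end that had an H3K9me3 member in LPS or PBS (%), with exact 95% intervals, for lists with at least 14 such genes. The red line marks the 26.8% found over all genes, and imprinted genes stand highest at 50%.

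Hox genes, the homeobox genes of body axis patterning, were members in 17 of 36 with H3K4me3 (47.2%), 16 in LPS, 6 in PBS and 5 in both. The count was 11 with a window of 0.5 kb and 11 with gene starts only. Hoxd10 held 91 H3K9me3 tags in LPS and 43 in PBS (ratio 1.04 on the log2 scale, 0.50 to 1.596; 0.08 per covered kb). The PBS peak there missed the rule because it lay 1360 bp from the gene end, so the site counts in LPS only. Hoxd13 held 61 and 21 (1.49, 0.76 to 2.28; 0.25), and Hoxd9 48 and 21 (1.15, 0.38 to 1.96; 0.24). Of the sites at Hoxd8, 1 held 43 and 52 tags (-0.32) and 1 held 30 and 14 (1.06, 0.03 per covered kb). Hoxa5 with Hoxa6 (52 tags), Hoxa11 (51) and Hoxa4 (51) were listed in LPS only, and Hoxb1 (16) in PBS only. H3K4me3 at Hoxd13, Hoxd9 and Hoxd10 had log2 ratios of 0.06, 0.18 and 0.28, or -0.04, -0.38 and 0.03 per covered kb.

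Genes of the machinery that writes, reads and removes the marks were also among the members. Of H3K9 methylation genes 11 of 23 had one (47.8%), 8 in LPS and 8 in PBS, and of H3K4 methylation genes 7 of 16 (43.8%), 4 in LPS and 5 in PBS. Kdm3b, an H3K9 demethylase gene, held 38 tags in each treatment, and Suv39h2, an H3K9 methyltransferase gene, 26 and 22. Atf7ip, a SETDB1 partner gene, held 30 and 19 at a site outside the gene that is shared with another gene. Ehmt2, which encodes G9a, held 47 in PBS only and Setdb1 18 in LPS only. Kmt2a, which encodes MLL1, held 45 and 38, and Kdm5b, an H3K4 demethylase gene, 38 and 21. Kmt2b (19 tags) was listed in PBS only and Kmt2c (15) in LPS only.

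Lists of LPS response genes differed in their shares of members. Immediate early factors were members in 12 of 29 with H3K4me3 (41.4%), 9 in LPS and 7 in PBS. A window of 0.5 kb left 6 of the list. NF-kB pathway genes were members in 9 of 29 (31.0%), 7 in LPS and 6 in PBS. Inflammatory mediators were members in 2 of 24 (8.33%) and interferon-stimulated genes in 3 of 34 (8.82%). The immediate early genes had tall H3K4me3 peaks, with median tags of 473 in LPS and 664 in PBS, whereas the mediators had 80 and 103.5. Btg1, an antiproliferative gene, held 43 H3K9me3 tags in LPS and 48 in PBS, and Ier5 37 and 38. Junb, an AP-1 subunit gene, held 42 and 18 (log2 ratio 1.18, 0.35 to 2.06; 0.26 per covered kb), and Jund 39 and 20. Cyld, a deubiquitinase gene, held 13 and 24, Nfkbib 13 and 15, and Ikbkb, a kinase gene, 14 and 12. The mediators were Cxcl1 (33 in LPS, 18 in PBS) and Ptgs2, which encodes cyclooxygenase 2 (15, LPS only). Adar, an RNA-editing enzyme gene, held 24 and 29, and Rtp4 held 16 in LPS only. Oasl1 held 90 H3K9me3 tags in LPS and 104 in PBS. An H3K4me3 peak met that site in PBS only (126 tags). At the ends of Oasl1, H3K4me3 was listed in both treatments, with 239 tags in LPS and 126 in PBS.

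Macrophage genes stood near or below the share of all genes. Of macrophage identity genes 4 of 24 were members (16.7%), of abundant macrophage transcripts 7 of 26 (26.9%), and of lysosome and phagocytosis genes 8 of 28 (28.6%). Beside Fcgr3, the identity genes were those of the transcription factors C/EBP-alpha (Cebpa, 15 tags in LPS and 30 in PBS), C/EBP-beta (Cebpb, 28, LPS only) and Maf (25, LPS only). Apoe, a lipid carrier gene, held 64 tags in LPS and 48 in PBS, Lamp1, a lysosomal membrane gene, 22 and 40, and Eef1a1, a translation factor gene, 14 and 20. Npc1, a cholesterol transporter gene, held 14 and 24, and Atp6v1a, a proton pump gene, 20 in PBS only.

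Ribosomal, respiratory chain, proteasome, synthetase and housekeeping gene lists stood below the 26.8% of all genes, and splicing factors at 27.5%. Members were found at 13 of 79 ribosomal protein genes, 6 of 76 respiratory chain genes, 7 of 38 proteasome genes, 4 of 20 aminoacyl-tRNA synthetase genes, 5 of 24 housekeeping genes and 11 of 40 splicing factor genes, all counted among those with H3K4me3. Rpl10a held 30 tags in LPS and 47 in PBS, Rplp0 20 and 16, and Rpl32 18 and 15. Cox6c held 33 and 18 and Atp5h 26 and 24. Psma7 held 41 in LPS only. Vcp, a segregase gene, held 13 and 25, Rab7 17 and 12, and Hnrnpd 13 and 32. Srsf9 had 1 site in LPS only (13 tags) and another in PBS only (18). The synthetase gene with most was Gars, with 18 in LPS only. Replication-dependent histone genes, which are transcribed in S phase, were members in 1 of 66, at H2bu2 with 21 tags in LPS only.

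Several gene families had few H3K4me3 peaks. Vomeronasal receptor genes had it at 6 of 353, and 3 of these were members. Vmn2r2 held 118 H3K9me3 tags in LPS and 116 in PBS, Vmn2r29 76 and 93, and Vmn2r4 41 and 42. Olfactory receptor genes had it at 10 of 1110, with members in LPS at Olfr212 (27 tags) and Olfr222 (12). An H3K9me3 peak of 37 tags lay at Olfr212 in PBS too, on no PBS H3K4me3 peak. Clustered protocadherin genes were members in 4 of 14, among them Pcdhgb7 (38, LPS only) and Pcdhgb6 (36, PBS only). Neuronal genes were members in 3 of 14, with Neurod2, a neuronal bHLH factor gene, at 72 and 33 tags (log2 ratio 1.08, 0.47 to 1.72; 0.16 per covered kb), Slc17a7 at 34 and 15 and Tubb3 at 22 in PBS only. Zinc finger genes with Zfp symbols were members in 75 of 341 (22.0%), led by Zfp865 and by Zfp579 with 207 and 180 tags. Genes of the nuclear lamina and envelope were members in 2 of 16, Nup153, with 1 site in LPS only (28 tags) and another in PBS only (13), and Lemd3 (18, PBS only). None of 8 SUN and LINC complex genes, 6 T cell, 4 neutrophil and 1 eosinophil or mast cell genes had one, while Cr2 (13 tags in LPS only) did among 5 B cell genes and Wt1 (40, LPS only) among 8 mesothelial and fibroblast genes.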

How the data were processed

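Tools listed in the submitters' processing notes were Bowtie 0.12.8, CASAVA 1.4, DiffBind and MACS 1.4.2, with build mm10. Per the file headers, the authors called peaks with MACS in each library separately, without a control, at a p-value of 1e-05. Each deposited table gives a count of tags per peak, a score (minus 10 times the log10 of the p-value) and a fold enrichment, a ratio of the peak to its background, with the length and summit in bp. Scores and folds describe peaks within a list only. A place that a list does not name fell under the caller's threshold.

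Members were found by interval overlap with a RefSeq gene table (GRCm38.p6, the build of mm10), which gives 21631 protein-coding genes with both ends and no strand. Gene starts and promoters came from RefSeq windows, which matched 17274 of these genes. A window counts as having a member where a member peak overlaps it. Promoter windows with undetermined bases were left out. Tags were scaled to filtered tags. Ratios of at least 2-fold were counted from 40 tags (H3K9me3) or 100 tags (H3K4me3) in both libraries together. Intervals of shares and single ratios are exact 95% Clopper-Pearson intervals and those of medians come from ranks. Both cover counting error or spread among regions, not error between cultures. The overlap code was tested on simulated data against bedtools 2.31.1 (Python 3.11.15, pandas 2.3.3, scipy 1.17.1).

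The members and the 31 gene lists were chosen with earlier results of these data known. The genes named are the 10 strongest sites in both lists and the 5 strongest in LPS only and in PBS only. Strength here was ranked by tags and not by score. Also named are the 3 highest and 3 lowest ratios, and sites of genes with members at both ends or 3 or more member peaks. To these were added up to 4 genes of each list by tags and the 2 peaks on each side of the 1 kb limit. Other members of the imprinted, Hox and machinery lists, and Oasl1 and Nfkbia as single cases, were named after their values were seen.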

Additional observations from a re-analysis of the deposited data

Results flagged for a closer look

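H3K9me3 peaks on the Y chromosome lie outside the rule and were looked at because the comparisons do not use them. There were 81 in LPS and 117 in PBS. They were seen before they were counted and are set against no control, so the counts are a description. Of these, 20 in LPS and 19 in PBS lay on 1 of the 27 (LPS) and 30 (PBS) H3K4me3 peaks there. Gene end and H3K4me3 peak were both met by 1 peak in LPS, with 728 tags, and by 2 in PBS, with 596 tags together, all at Gm52481. The median Y peak held 19 tags (LPS) and 18 tags (PBS).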

How the results depend on the processing

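The number of members moved most with peak strength. With H3K9me3 scores of 100 or more, 828 members remained in LPS (28.4% of the peaks) and 559 in PBS (19.99%). The share of H3K9me3 peaks that are members was 13.7% in LPS and 9.40% in PBS with a window of 0.5 kb, 19.13% and 13.1% with 2.5 kb, and 15.9% in LPS with H3K4me3 scores of 100 or more. Requiring 50% of the peak, or its summit, inside H3K4me3 peaks, or lists of equal length, moved it by less than its interval. The share of members met by the other list was 34.8% (LPS) and 50.4% (PBS) when 50% of the peak had to overlap, and 36.2% and 51.2% with scores of 100 or more. The share of gene-end H3K4me3 peaks with a member was 21.8% (LPS) and 15.8% (PBS) with H3K4me3 scores of 100 or more, and 17.9% and 13.2% with 0.5 kb. The median H3K9me3 log2 ratio was 0.23 per total tag, 0.0025 per covered kb and 0.11 with scores of 100 or more. The median H3K4me3 log2 ratio with a member, -0.29, came to -0.18 per total tag, -0.16 per covered kb and, reversed in sign, 0.068 relative to all gene-end H3K4me3 regions. The cause of these shifts was not tested. List counts stayed within 1.5 times in 23 of 31 lists with gene starts only, 25 with 0.5 kb and 27 with 2.5 kb. With gene starts only, the others came to 11 Hox, 8 ribosomal protein, 5 lysosome and phagocytosis, 4 proteasome, 2 macrophage identity, 1 vomeronasal receptor, 0 protocadherin and 0 mesothelial and fibroblast genes. Starts matched 17274 of the 21631 genes and none on chromosome 18, where the named protocadherin genes lie. Their 0 was therefore fixed by the setting and shows no dependence. Other lists lost genes there in the same way, such as Npc1 and Nars. With 0.5 kb they came to 11 Hox genes, 6 immediate early factors and 1 each of interferon-stimulated, lamina and envelope, olfactory and vomeronasal genes, and with 2.5 kb to 7 macrophage identity, 5 olfactory, 2 B cell and 1 SUN and LINC complex genes. Of 18 ratios at the strongest and most different sites, 8 left their interval per covered kb and none clear of 0 changed sign. In a check added after seeing the data, 57 ratios at sites of listed genes were also taken per covered kb. Of these 11 left their interval, and at Cdkn1c the sign turned, to 0.081. H3K4me3 at Fcgr3 turned to -0.19. No paired analysis was possible because each group is 1 library, and for the same reason no replicate could be left out. Peaks of under 30 tags, most of the members, set the limit of depth here.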
